A study of Mus musculus with 8 samples.

Results

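Neural patterning and neurogenic genes were followed at the level of DNA methylation while mouse embryonic stem cells (ESCs) began neuroectodermal differentiation. The set holds 40 genes taken by name, chosen with earlier results of these data known. A window belonged to the set when the transcription start site (TSS) nearest to its centre was that of one of these genes in the GENCODE M1 annotation of the mm9 mouse genome. This gave 418 of 54235 windows, at 35 of the 40 genes, out of 13438 genes with a window. The Notch target Hes5, the proneural factors Neurod1 and Neurod4 and the neuronal cytoskeletal genes Map2 and Dcx had no window by this rule and do not enter the main counts. At Neurod1, 4 windows lay in its transcribed span or up to 1 kb before it but were assigned to another TSS. The measured genes had a median of 11 windows each, from 1 at Irx3 to 30 at Lhx5, against a median of 3 over all genes, and 417 of the 418 windows were single-copy sequence.

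All cells were E14Tg2a, a feeder-free mouse ESC line, and all had been transiently transfected with siRNA. CTR KD cells had received negative control siRNA and YAP KD cells siRNA against YAP, the co-activator that the Hippo pathway restrains. Both were collected before differentiation (T0) and on day 4 in serum-free embryoid bodies (SFEBs; T4), with 2 independent experiments in each of the 4 groups. The knockdown was transient by design, so at T4 the name YAP KD refers to an earlier silencing. The deposited tables give 1 methylation difference for each window and comparison, with its p- and q-value, and no value per sample, no level and no read depth. The spread between the 2 experiments, the depth and the methylation levels behind a difference are therefore unknown. The tables hold no expression values, so neither the knockdown nor the neural identity of the T4 cells was checked. In aggregates read as bulk DNA, a change in every cell and a change in the mix of cells cannot be told apart.

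Most of these genes encode transcription factors that divide the early neural plate into regions or that start neurogenesis. As general background, the starts of such genes lie in long CpG-rich stretches that are usually free of methylation in ESCs and are held silent there by Polycomb proteins, and methylation is found at the edges of these stretches and beyond. Methylation of CpGs can be lost or gained as cells leave pluripotency, when the de novo methyltransferases are active.

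The windows that carried the largest changes are shown first, as read from the plus strand of the mm9 reference, with CpGs in capitals since only these cytosines were compared. The first pair are the largest losses in CTR KD differentiation outside UTR sequence, in an intron of Zic4 (chr9:91278251-91278500) and upstream of Fezf2 (chr14:13179876-13180125). The next pair are the largest such losses in YAP KD differentiation at other genes, an intergenic window nearest to En1 (chr1:122691876-122692125) and a coding exon of Pax3 (chr1:78191876-78192125). The Nkx6-1 window (chr5:101966751-101967000) had the smallest p for a difference between the YAP KD and CTR KD changes. The last, just upstream of the Pax3 start (chr1:78193751-78194000), was chosen after its values were seen, to show sequence beside the Pax3 exon that stayed below the threshold.
Zic4 intron: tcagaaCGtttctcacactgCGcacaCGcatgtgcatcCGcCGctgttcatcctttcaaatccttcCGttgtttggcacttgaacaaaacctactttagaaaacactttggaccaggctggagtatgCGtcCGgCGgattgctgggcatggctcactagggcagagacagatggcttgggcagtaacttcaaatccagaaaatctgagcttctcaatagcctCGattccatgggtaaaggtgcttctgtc
Fezf2 upstream: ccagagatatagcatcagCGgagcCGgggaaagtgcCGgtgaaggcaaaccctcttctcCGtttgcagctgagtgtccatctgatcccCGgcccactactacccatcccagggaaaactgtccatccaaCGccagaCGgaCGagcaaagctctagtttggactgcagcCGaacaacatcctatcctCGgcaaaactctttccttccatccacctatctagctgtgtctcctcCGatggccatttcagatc
En1 distal: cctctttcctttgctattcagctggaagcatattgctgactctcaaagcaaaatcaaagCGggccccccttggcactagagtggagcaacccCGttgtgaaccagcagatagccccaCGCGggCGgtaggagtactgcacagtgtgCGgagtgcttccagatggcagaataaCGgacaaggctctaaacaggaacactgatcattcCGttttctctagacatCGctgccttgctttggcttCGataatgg
Pax3 exon: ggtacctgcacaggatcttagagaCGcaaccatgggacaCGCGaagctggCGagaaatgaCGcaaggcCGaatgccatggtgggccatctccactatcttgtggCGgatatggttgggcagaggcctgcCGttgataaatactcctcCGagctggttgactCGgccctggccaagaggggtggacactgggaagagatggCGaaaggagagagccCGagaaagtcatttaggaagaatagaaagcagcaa
Nkx6-1 distal: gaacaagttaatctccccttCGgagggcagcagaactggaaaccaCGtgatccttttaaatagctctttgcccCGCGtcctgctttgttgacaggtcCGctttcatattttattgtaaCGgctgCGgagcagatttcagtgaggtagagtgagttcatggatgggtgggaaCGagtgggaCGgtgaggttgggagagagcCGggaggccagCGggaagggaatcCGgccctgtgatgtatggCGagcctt
Pax3 upstream: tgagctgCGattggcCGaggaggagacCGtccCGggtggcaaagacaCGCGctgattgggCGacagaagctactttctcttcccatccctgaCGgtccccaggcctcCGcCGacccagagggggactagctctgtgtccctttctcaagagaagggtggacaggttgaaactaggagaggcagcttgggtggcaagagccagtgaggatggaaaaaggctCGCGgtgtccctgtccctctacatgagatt
The Zic4 intron and the En1 distal window hold 10 CpGs each, the Fezf2 window 11, the Pax3 exon and Pax3 upstream windows 12 each and the Nkx6-1 window 13. In CTR KD cells the 5 windows with a value ranged from -30.6 points at the Zic4 intron to 1.19 points at the Nkx6-1 window, and the En1 distal window was not listed.

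The comparison of T4 with T0 in CTR KD cells asks how methylation at these genes is remodelled when control cells differentiate. Windows whose q did not exceed 0.05 and whose difference was over 10 percentage points in size were taken as differentially methylated regions (DMRs). Of 357 windows at the 35 genes, 19 lost methylation by this rule and 0 gained it. Over all windows, 2.21% were loss DMRs and 0.958% gain DMRs. The losses fell at 8 of 35 genes, against 5.32% of all genes with a window: Zic4, Fezf2, Lhx2, Pax3, Nkx6-1, En1, Olig2 and Lhx5. The median difference was -1.11 points at these genes and -0.07 over all windows, and 77.3% of their windows were below 0, against 54.0% of all windows. By q alone, 98 of the 357 windows fell and 1 rose, where the shares over all windows were 9.57% and 4.73%. At an unadjusted p under 0.05 in the methylKit values, 141 windows were lower and 5 were higher, 39.5% and 1.40%, against 14.7% and 8.46% of all windows. The genes had more windows each than most genes, which raises the chance that a gene holds a DMR. Since they were chosen with earlier results of these data known, the shares only describe the set.

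The same comparison in YAP KD cells gave 24 loss DMRs in 324 windows and 0 gains, where 3.35% and 0.505% of all windows were loss and gain DMRs. Again 8 of 35 genes held a loss, against 7.29% of all genes: Zic4, Fezf2, Pax3, En1, Pax7, Emx2, Olig2 and Nkx6-1. The median difference was -1.18 points, against -0.17 over all windows. By q alone 98 windows fell and 2 rose, beside 12.7% and 3.42% of all windows. At an unadjusted p under 0.05, 141 windows were lower and 6 were higher, 43.5% and 1.85%, against 18.1% and 6.28% of all windows. The 3 windows that rose by q alone in either comparison changed little: one at Fezf1 by 1.46 points in CTR KD cells, and one each at Neurog1 (1.55 points) and Pax2 (1.33 points) in YAP KD cells.

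**Figure D1:**
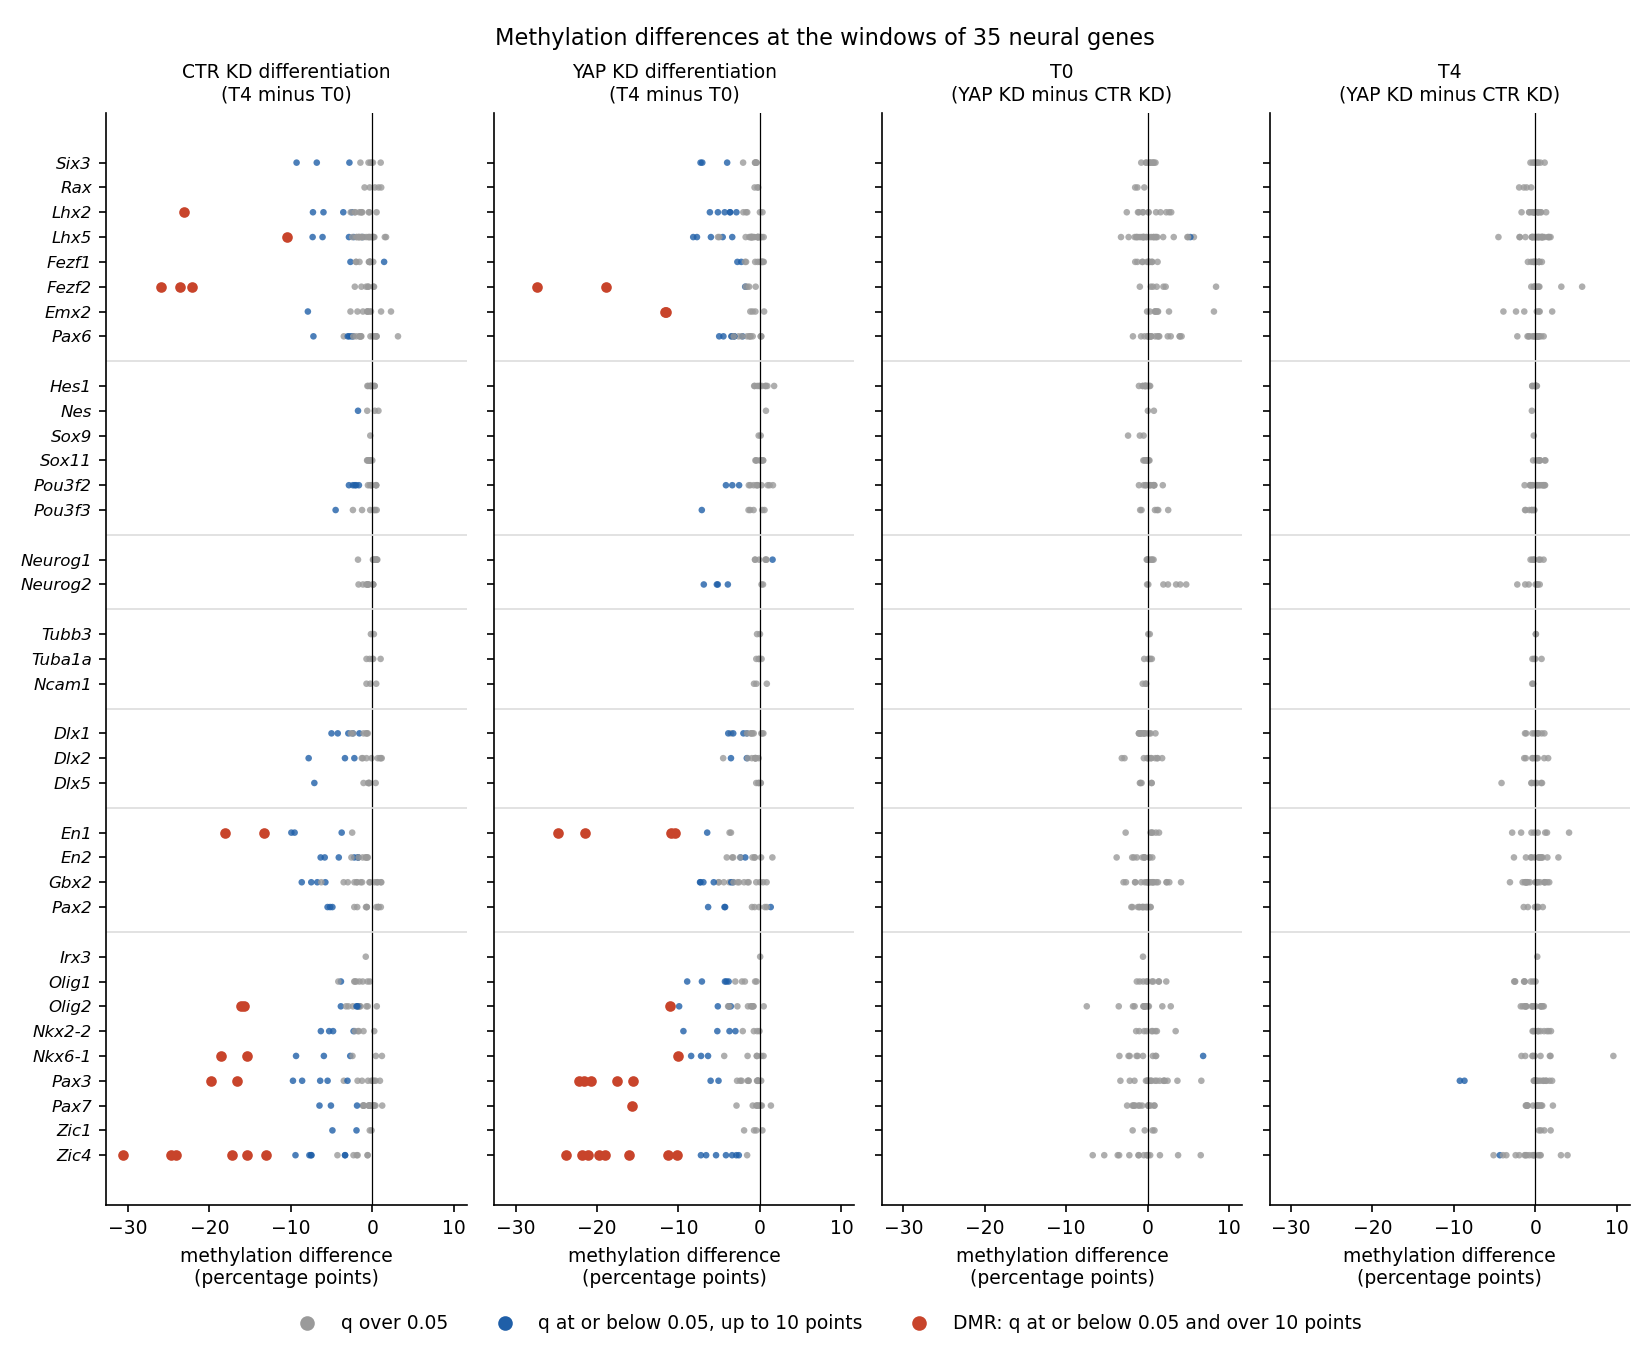
Methylation differences in percentage points (x axis) at every window of the 35 measured genes (rows, grouped by role), in the 4 comparisons (panels). Each point is a window: grey, q over 0.05; blue, q at or below 0.05 with up to 10 points; red, DMR. DMRs lie on the loss side in both differentiation panels, 19 in CTR KD and 24 in YAP KD, and there are 0 in the T0 and T4 panels.

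The genes of dorsoventral patterning, which assign positions from the roof plate to the floor plate of the neural tube, held most of the losses. In CTR KD cells 12 of their 98 windows were loss DMRs, at 4 of 9 genes, and in YAP KD cells 16 of 93, at 5 of 9 genes. The shares were 12.2% and 17.2%, beside 2.21% and 3.35% of all windows. The median difference of the dorsoventral genes was -1.92 points in CTR KD and -2.76 points in YAP KD cells. Zic1 and Irx3, factors of the dorsal neural plate and of progenitor domains, Olig1, a factor of the oligodendrocyte lineage, and Nkx2-2, a ventral repressor, had no DMR. By the rule Irx3 had 1 window and Zic1 had 4, though 8 lay in the transcribed span of each or up to 1 kb before it. Among these genes without a DMR, the window nearest to the threshold was in an intron of Nkx2-2. It stood at -6.30 points in CTR KD cells (q = 0.000589) and -9.39 points in YAP KD cells (q = 3.58e-06).

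Zic4, a zinc finger gene of the dorsal neural tube and cerebellum, had the most DMR windows of any gene in the set. All 18 windows listed in CTR KD cells and all 16 in YAP KD cells were below 0, with medians of -7.48 and -8.73 points. DMRs numbered 6 and 8. The largest was the intron window shown above, 1.13 kb downstream of a TSS, at -30.6 points in CTR KD cells (derived SE 2.86, q = 2.21e-24) and -23.8 points in YAP KD cells (derived SE 2.86, q = 8.45e-15). Here and below, the derived SE is the size of the difference over the normal quantile that matches the deposited p-value, and it may hold read counting error alone. A run of 3 coding exon windows 1.63 to 1.88 kb from that TSS fell, with -12.99, -15.4 and -17.2 points in CTR KD cells and -21.9, -19.7 and -16.1 points in YAP KD cells. At 4.63 and 4.75 kb, a pair of UTR windows fell, with -24.7 and -24.1 points in CTR KD cells and -21.1 and -19.1 points in YAP KD cells. Nearer than 1 kb to a TSS the Zic4 windows were closer to 0, between -9.42 and -0.56 points in CTR KD cells. A pair of coding exon windows there, at -10.2 and -11.3 points in YAP KD cells, were DMRs. The neighbouring Zic1, whose annotation overlaps that of Zic4 head to head, had its largest difference at -4.88 points in CTR KD cells (q = 5.41e-07) and -1.94 points at the same window in YAP KD cells (q = 0.18).

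Pax3, which marks the dorsal neural tube and the neural crest, lost methylation within its coding sequence. An exon window 3.04 kb downstream of the TSS fell, at -19.8 points in CTR KD cells (derived SE 1.67, q = 6.58e-30) and -20.7 points in YAP KD cells (derived SE 1.75, q = 1.11e-29). The exon window at 1.41 kb fell, at -16.6 points in CTR KD cells and -22.3 points in YAP KD cells, and the one overlapping it at 1.54 kb, listed for YAP KD cells alone, fell by 21.6 points. Within 1 kb of the start all 5 windows of CTR KD cells lay between -3.03 and -0.09 points and all 4 of YAP KD cells between -2.81 and -1.38 points. A further pair of overlapping windows 115 kb away, nearest to Pax3 by the rule but outside any gene, fell, with -15.5 and -17.5 points in YAP KD cells, and differed by -3.49 points (q = 0.355) and -6.39 points (q = 0.0253) in CTR KD cells.

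Pax7, a close relative of Pax3 in the dorsal neural tube, had 1 DMR, in a coding exon at 2.80 kb, with -15.7 points in YAP KD cells (q = 2.91e-09) and -6.47 points in CTR KD cells (q = 0.018). Olig2, which specifies motor neuron and oligodendrocyte progenitors, fell at 1.79 kb upstream of its TSS, with -15.7 points in CTR KD and -10.99 points in YAP KD cells. A UTR window of Olig2 at 2.83 kb fell by 16.1 points in CTR KD cells and stood just below the minimum difference in YAP KD cells, at -9.92 points (q = 0.00249). Nkx6-1, a ventral progenitor factor, fell at 1.63 kb upstream, with -15.4 points in CTR KD and -10.05 points in YAP KD cells. An intergenic window 18.0 kb downstream of its TSS fell by 18.6 points in CTR KD cells and stood at -8.44 points in YAP KD cells (q = 0.0272).

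Of the genes of the midbrain and hindbrain, En1, which patterns the midbrain-hindbrain region, held all DMRs: 2 of the 51 windows of this group in CTR KD cells and 4 of 47 in YAP KD cells. The shares were 3.92% and 8.51%, beside 2.21% and 3.35% of all windows. An intergenic window 6.37 kb upstream of En1 fell, at -18.1 points in CTR KD cells (derived SE 2.61, q = 2.01e-10) and -21.5 points in YAP KD cells (derived SE 2.64, q = 2.55e-14). A pair of windows at 2.24 and 2.12 kb upstream lay on either side of the minimum difference, at -9.93 and -9.53 points in CTR KD and -10.9 and -10.4 points in YAP KD cells. An intron window at 2.76 kb fell by 13.3 points in CTR KD cells and stood at -6.47 points in YAP KD cells (q = 0.0277). The distal window shown above lies 193 kb from the En1 start and was listed for YAP KD cells alone among the differentiation tables, at -24.8 points (q = 5.12e-09). En2, the relative of En1, and Gbx2 and Pax2, which take part in placing and maintaining the boundary, had no DMR. En2 ranged from -6.33 to -0.54 points in CTR KD and from -4.07 to 1.53 points in YAP KD cells, Gbx2 from -8.65 to 1.11 and from -7.35 to 0.82 points, and Pax2 from -5.48 to 1.06 and from -6.36 to 1.33 points.

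The factors of the forebrain and eye field held 5 loss DMRs in 109 windows of CTR KD cells, at 3 of 8 genes, and 4 in 93 windows of YAP KD cells, at 2 of 8 genes. The shares were 4.59% and 4.30%, beside 2.21% and 3.35% of all windows, so the YAP KD share was near that of all windows. Fezf2, which specifies forebrain and later subcerebral neurons, fell at a pair of overlapping UTR windows 3.50 and 3.63 kb downstream of its TSS, with -23.6 and -22.1 points in CTR KD cells. The same windows stood at -18.9 and -27.3 points in YAP KD cells. Its upstream window, at 1.62 kb, fell by 25.9 points in CTR KD cells (derived SE 3.27, q = 1.73e-13) and was not listed for YAP KD cells. The 4 windows within 1 kb of the Fezf2 start lay between -0.75 and 0.15 points in CTR KD cells. Lhx2, which is needed for eye and cortex formation, fell by 23.1 points in CTR KD cells at an intron window 7.32 kb downstream of a TSS (q = 1.07e-13), and this window was in none of the other 3 tables. Lhx5, an early forebrain LIM factor, fell by 10.5 points in CTR KD cells at an intron window 7.61 kb downstream, and stood at -8.19 points in YAP KD cells (q = 4.05e-06). It was the DMR nearest to the minimum difference in CTR KD cells.

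Emx2, a factor of the dorsal forebrain, had a DMR in YAP KD cells alone, at an upstream and a downstream window. At 4.68 kb upstream of the start it fell by 11.5 points in YAP KD cells and stood at -7.90 points in CTR KD cells (q = 7.32e-05). At 4.58 kb downstream it fell by 11.6 points in YAP KD cells (derived SE 2.30, q = 7.63e-06) and stood at 1.09 points in CTR KD cells (derived SE 1.87, q = 0.657). Six3 and Pax6, central factors of the anterior neural plate and eye, had no DMR. Six3 ranged from -9.28 to 1.04 points in CTR KD and from -7.29 to -0.40 points in YAP KD cells, and Pax6 from -7.22 to 3.16 and from -5.00 to 0.18 points. Fezf1 ranged from -2.67 to 1.46 points in CTR KD cells and Rax, the eye field homeobox gene, from -0.94 to 1.10 points.

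No DMR was found at the progenitor, proneural, neuronal and Dlx genes of the set. Over all windows, 2.21% in CTR KD and 3.35% in YAP KD cells were loss DMRs. In groups of so few windows, a count of 0 does not set these genes apart from that share. The Notch target Hes1, the intermediate filament gene Nes and the progenitor factors Sox9, Sox11, Pou3f2 and Pou3f3 had 0 DMRs in 41 windows of CTR KD and 40 of YAP KD cells. By q alone 7 windows of this group fell in CTR KD cells, at Pou3f2, Pou3f3 and Nes, and 4 in YAP KD cells, at Pou3f2 and Pou3f3. The lowest was 16.1 kb from Pou3f3, at -4.49 points in CTR KD cells and -7.14 points in YAP KD cells. The proneural factors Neurog1 and Neurog2, which start neuronal differentiation, had 0 DMRs in 19 and 13 windows. Neurog2 had 4 windows past q alone in YAP KD cells, down to -6.89 points, and 0 in CTR KD cells, where its range was -1.68 to 0.14 points. Tubb3, Tuba1a and Ncam1, neuronal tubulins and an adhesion molecule, had 0 DMRs and 0 windows past q alone in 10 and 9 windows, with all differences between -0.73 and 1.03 points. These 3 genes were measured at few windows. Dlx1, Dlx2 and Dlx5, genes of ventral forebrain interneurons, had 0 DMRs in 29 windows of each comparison. By q alone, 9 of their windows passed in CTR KD and 6 in YAP KD cells. Dlx6, which lies beside Dlx5 but is not in the set, did hold loss DMRs. Its windows fell by up to 14.7 points in CTR KD and 18.3 points in YAP KD cells. The lowest of the Dlx windows in the set was 34.7 kb from Dlx2, at -7.80 points in CTR KD cells (q = 0.00081) and -4.51 points in YAP KD cells (q = 0.118).

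**Figure D2:**
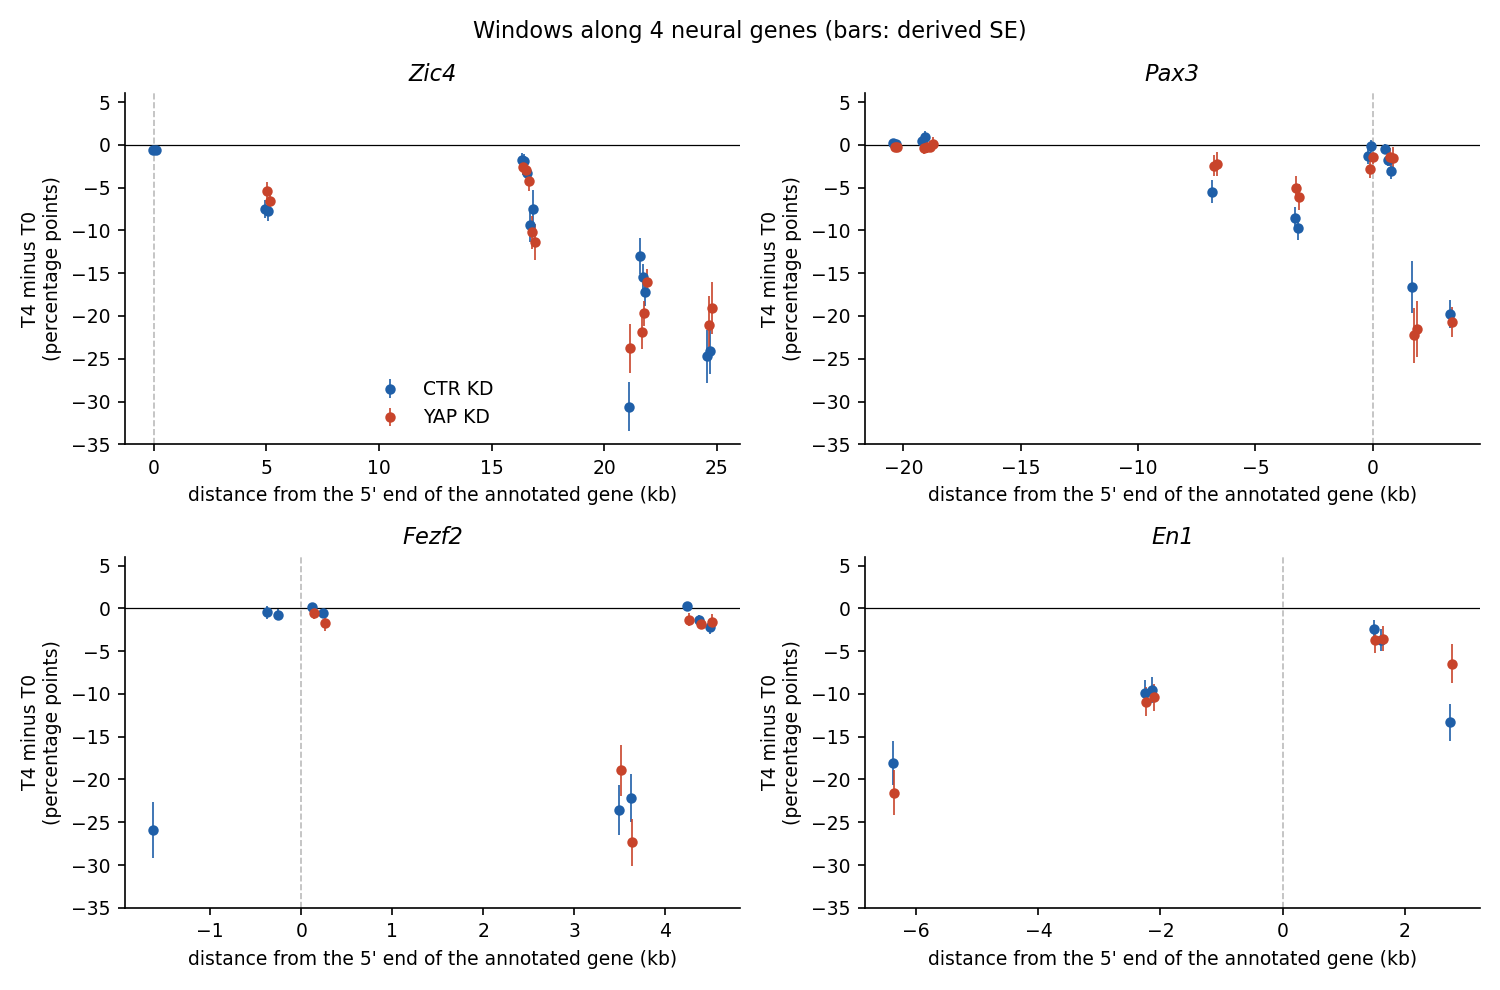
Differentiation change (T4 minus T0, percentage points, y axis) at windows along 4 genes, by distance from the 5' end of the longest annotated span, not the nearest TSS, in the direction of transcription (kb, x axis; dashed line, 5' end). Points are windows within 30 kb in CTR KD (blue) and YAP KD (red) cells, set slightly apart to show both, and bars are derived SEs. Windows at the start of Fezf2 and Pax3 lie near 0, and the pair of UTR windows near the 3' end of Fezf2 and the coding exon windows of Pax3 lie between -27.3 and -16.6 points.

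Most of the losses lay at 1 to 10 kb from a TSS. Of the 30 windows that were a DMR in either differentiation table, merging into 22 regions, 2 lay within 1 kb of a TSS, 24 at 1 to 10 kb and 4 farther away. On the gene side of the TSS there were 23 and upstream 7. How all measured windows divide between these sides is not given here, so this split cannot be read as a trait of the losses. In CTR KD cells 0 of 152 windows within 1 kb and 18 of 160 windows at 1 to 10 kb were loss DMRs, 0% and 11.3%. Over all windows the shares were 0.756% and 4.47%. For YAP KD differentiation, the loss DMRs were 1.55% of the 129 windows inside 1 kb and 12.7% of the 150 at 1 to 10 kb, against 1.11% and 6.12% of all windows. Beyond 10 kb the order turned, with 1 of 45 windows (2.22%) in CTR KD and 3 of 45 (6.67%) in YAP KD cells, against 6.87% and 11.1% of all windows. These shares are descriptions, since neighbouring windows overlap.

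**Figure D3:**
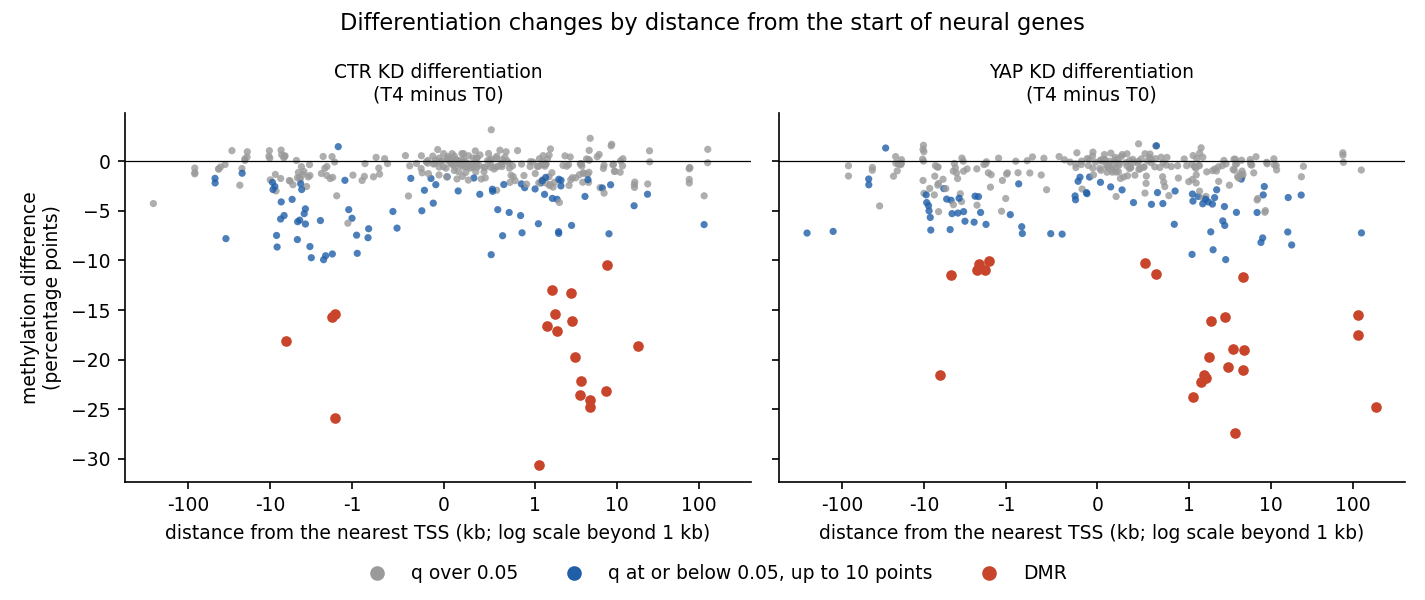
Differentiation change (percentage points, y axis) of each window of the 35 genes against distance from its nearest TSS (kb, x axis, linear within 1 kb and logarithmic beyond; negative is upstream), in CTR KD (left) and YAP KD (right) cells. Grey, q over 0.05; blue, q at or below 0.05 with up to 10 points; red, DMR. Of the 30 windows that are red in either panel, 24 lie at 1 to 10 kb.

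Over all distances, losses were more frequent in windows with fewer CpGs. The 30 DMR windows had 10 to 24 CpGs with a median of 13, against a median of 15 in the other windows of the set, and a median GC content of 52.6% against 58.4%. Their CpG observed to expected ratio was not lower, with a median of 0.791 against 0.759. In windows with up to 12 CpGs, 8.57% were loss DMRs in CTR KD and 9.0% in YAP KD cells, and in windows with over 20 CpGs 2.82% and 3.45%. Over all windows these shares were 4.80% and 6.99% at up to 12 CpGs and 0.269% and 0.476% at over 20. The windows at 1 to 10 kb with 13 to 20 CpGs, the largest class there, had 8.51% loss DMRs in CTR KD and 12.1% in YAP KD cells, against 3.44% and 4.73% of all windows of that distance and CpG count. At that distance the order by CpG count did not hold throughout, since windows with over 20 CpGs had 11.1% and 12.5% (2 of 18 and 2 of 16). The part of CpG content in the differences between genes was not tested.

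Other neural genes, a list of 80 regional, proneural and neuronal genes that shares no gene with the set, gave the following shares for comparison. Loss DMRs were found at 19 of 70 of its measured genes in CTR KD cells and at 19 of 71 in YAP KD cells, 27.1% and 26.8%, beside 22.9% of the 35 genes in each comparison. By windows the shares were 5.68% and 8.56%, beside 5.32% and 7.41%. Nearer than 1 kb to a TSS, 9 of 226 windows of this list were loss DMRs in CTR KD cells (3.98%) and 9 of 189 in YAP KD cells (4.76%). The list held 1 gain DMR window in each comparison, at Nkx6-2 (15.9 points in CTR KD cells) and Gli2 (12.5 points in YAP KD cells). These were 0.183% and 0.209% of its windows, beside 0.958% and 0.505% of all windows. They do not set the list apart from the set, which had 0. The same windows also rose in the other comparison, Nkx6-2 by 9.34 points in YAP KD cells and Gli2 by 6.78 points in CTR KD cells. Among its losses were the cortical factor Prdm8, with -20.1 and -26.1 points, and Pax5, a partner of Pax2 at the midbrain-hindbrain boundary, with -24.2 and -23.2 points in CTR KD and YAP KD cells. This list was also chosen with earlier results of these data known. Whether it and the set differ was not tested.

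**Figure D4:**
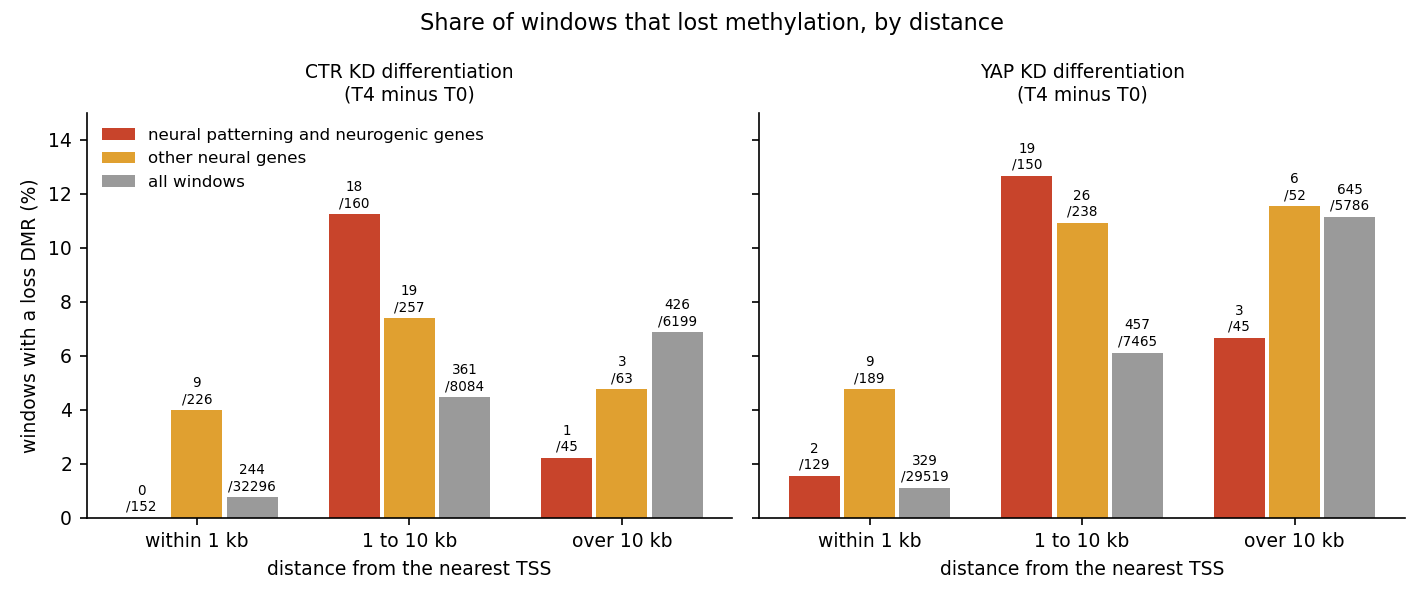
Share of windows that were loss DMRs (%, y axis) by distance from the nearest TSS (x axis), in CTR KD (left) and YAP KD (right) differentiation. Bars: neural patterning and neurogenic genes (red), the list of other neural genes (yellow) and all windows (grey), with the counts above. The red bars are highest at 1 to 10 kb, 11.3% and 12.7%.

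The next comparison asks whether the change on differentiation differs after YAP silencing. Of 291 windows of the set in both differentiation tables, 228 (78.4%) had the same sign, with a Pearson r of 0.857 and a Spearman rho of 0.682 across windows, which overlap and are not independent. The YAP KD change was the lower at 151 of them (51.9%), against 56.8% of all windows, and the median difference between the changes was -0.10 points, against -0.15 over all windows. Of the 30 DMR windows, 13 were DMRs in both tables, 6 in CTR KD alone and 11 in YAP KD alone. Of the 6, 4 passed q alone in YAP KD cells and the other 2 were not listed there. Of the 11, 7 passed q alone in CTR KD cells, 2 did not pass and 2 were not listed. Over all windows, loss DMRs were also more frequent in YAP KD (3.35%) than in CTR KD cells (2.21%). The overlap over all windows is not given here, so these counts are not a trait of the set. Falling on different sides of a threshold does not show that the changes differ.

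The difference itself was tested at each window with a two-sided z test from the derived SEs, adjusted by the Benjamini-Hochberg method over all 38551 shared windows. The adjusted p is given as the z test q. It called 3 windows of the set, all lower in YAP KD cells, 1.03% of the 291, beside 1.29% of all windows. An unadjusted p under 0.05 was found at 35 windows of the set, 12.03%, beside 11.27% of all windows. The Nkx6-1 distal window, 127 kb from the start of this gene, changed by 1.19 points in CTR KD and -7.23 points in YAP KD cells, a difference of -8.42 points (SE 1.90, z test q = 0.00268). The Emx2 window at 4.58 kb downstream differed by -12.7 points (SE 2.96, z test q = 0.00451). A window 4.80 kb upstream of Neurog2 stood at 0.07 points in CTR KD and -6.89 points in YAP KD cells, a difference of -6.97 points (SE 1.93, z test q = 0.0314). At T0 the YAP KD minus CTR KD difference was 6.81 points at the Nkx6-1 window (q = 0.00349), 8.14 points at the Emx2 window (q = 0.0691) and 3.50 points at the Neurog2 window (q = 0.403). At T4 the same windows stood at -1.71, -3.92 and -2.22 points, none past q. The T0 and T4 values share their samples with the changes. With the derived SE doubled, 0 of the 3 calls remained.

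Windows near the threshold included the pair 115 kb from Pax3, with differences of -12.1 points (SE 3.75, z test q = 0.0744) and -11.1 points (SE 3.32, z test q = 0.0556). A Zic4 coding exon window at 1.63 kb differed by -8.86 points (SE 2.87, z test q = 0.0963) and the Pax7 exon by -9.25 points (SE 3.23, z test q = 0.141). Not every difference pointed to a larger loss in YAP KD cells. The Nkx6-1 window at 18.0 kb lost less there, by 10.1 points (SE 4.10, z test q = 0.252), as did the Zic4 intron, by 6.82 points (SE 4.05, z test q = 0.558). Of the 26 DMR windows with both values, 15 were lower in YAP KD cells and 1, that of Emx2, was called.

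**Figure D5:**
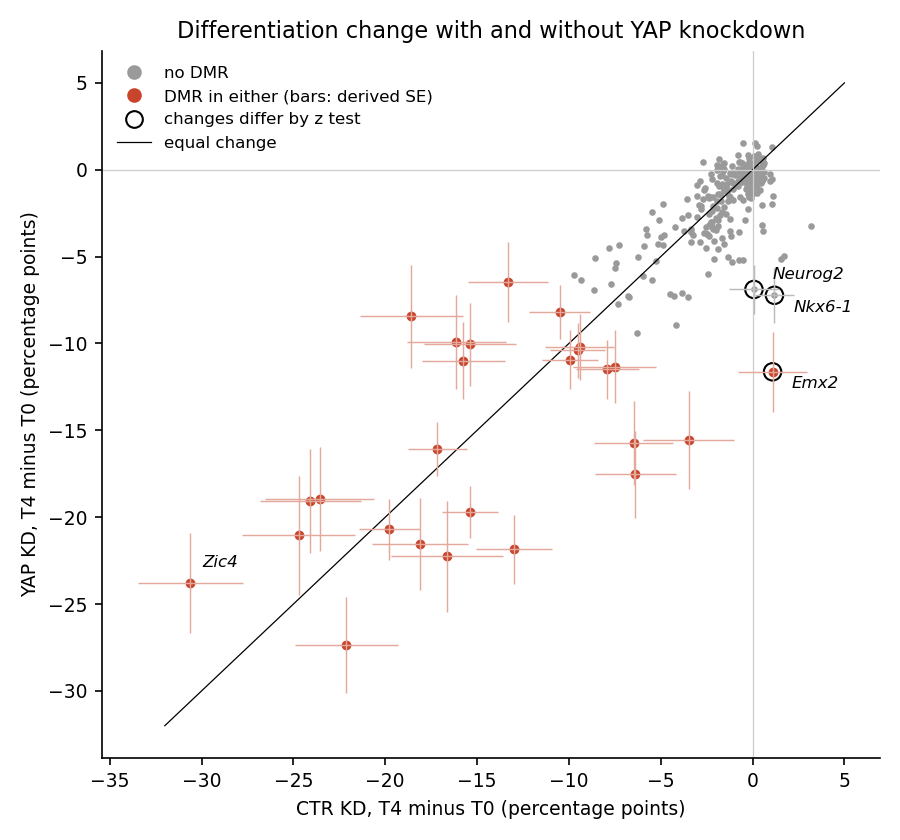
Change from T0 to T4 in YAP KD cells (y axis) against that in CTR KD cells (x axis), both in percentage points, at the 291 windows of the set in both tables. Red, DMR in either table with derived SEs; grey, other windows, with SEs shown where called; circles, the 3 windows whose changes differ by the z test; line, equal change. The circled windows, at Neurog2, Nkx6-1 and Emx2, lie between 0.07 and 1.19 points in CTR KD cells and between -11.6 and -6.89 points in YAP KD cells.

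Comparing YAP KD with CTR KD cells at one time asks whether silencing left a difference at that time. At T0, 0 of 348 windows of the set were DMRs, beside 0.0867% of all windows, and the differences ranged from -7.47 points at Olig2 to 8.40 points at Fezf2, with a median of 0.07. By q alone 2 windows passed, beside 0.389% of all windows, both higher in YAP KD cells: the Nkx6-1 distal window at 6.81 points and a coding exon window of Lhx5 at 5.24 points (q = 0.0332). At an unadjusted p under 0.05 in the methylKit values, 27 windows were higher and 15 lower, 7.76% and 4.31%, near the 6.17% and 3.84% of all windows. The groups were unlike in this. Of 100 forebrain and eye field windows, 17 were higher and 1 lower, and of 98 dorsoventral windows, 3 were higher and 9 lower. Whether the groups differ was not tested. At T4, 0 of 335 windows were DMRs, beside 0.32% of all windows, with a range from -9.27 points at Pax3 to 9.58 points at Nkx6-1 and a median of 0.03. By q alone 3 windows passed, beside 1.33% of all windows, all lower in YAP KD cells. These were the pair 115 kb from Pax3, at -9.27 points (q = 0.0196) and -8.70 points (q = 0.0102), and a Zic4 coding exon window with 24 CpGs at -4.36 points (q = 0.00692). At an unadjusted p under 0.05, 16 windows were higher and 20 lower, 4.78% and 5.97%, near the 3.55% and 7.69% of all windows. At the 30 windows that were DMRs on differentiation, the knockdown difference had a median of 0.37 points at T0 (25 windows listed, -7.47 to 8.40) and of -0.15 points at T4 (28 windows listed, -9.27 to 9.58).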

How the data were processed

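The samples were captured by a methylation target enrichment kit and bisulphite sequenced. The authors trimmed reads with Trim Galore, aligned them to mm9 with Bismark and Bowtie2, extracted CpG calls and contrasted the groups in methylKit. Positions under 6 reads had been excluded, per the study's methods. For each window the values used are the methylation difference (percentage points), p-value and q-value as the authors deposited them, in 1 table for each of 4 comparisons. Windows are 250 bp long and start every 125 bp. Replicates were not separated, so depth per sample is unknown and the authors' p-values carry the only error. Whether these allow for extra spread between the 2 experiments is not given in the sources used here, so q-values, derived SEs and z test calls may cover counting error alone.

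Differences are T4 minus T0 or YAP KD minus CTR KD. The sign of the differentiation tables rests on how the study describes gains and losses, and every loss named here rests on it. Given that sign, the direction of the knockdown tables follows from closure over 37980 windows in all 4 tables (r = 0.989), which alone cannot fix the sign. Windows were given the nearest TSS, a feature class and CpG counts from GENCODE M1 on NCBIM37 (mm9), with synonyms from RefSeq (GRCm38.p6), and the class by the window's centre. The z test with Benjamini-Hochberg adjustment (Python 3.11.15, NumPy 2.4.6, pandas 2.3.3, SciPy 1.17.1) used SEs derived from the deposited p-values. Its code was run on simulated windows with independent normal errors. These held no read counts, no overlap between windows and no spread between experiments. The run therefore cannot show whether the derived SEs are large enough for these data. A window was single-copy when the median count of its 31-mers in the genome was 1.

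Named were all genes with a DMR, by the DMR window of largest difference in each comparison that had one and its value in the other differentiation table, genes with a z test call by that window, and the others by range, lowest window or group counts. T0 and T4 values at DMR windows are given by median and range. The members and lists were chosen with earlier results of these data known. Alternatives were a minimum of 20 points or none, a q of 0.01, every second window, windows within 10 kb, protein-coding TSSs, assignment by transcribed span or 1 kb before it, single-copy windows, doubled SEs and adjustment over DMR windows alone.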

Additional observations from a re-analysis of the deposited data

Results flagged for a closer look

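In 3 windows of the set, the change on differentiation differed between YAP KD and CTR KD cells by the z test on derived SEs, each change being lower in YAP KD cells. The differences were -8.42 points at the window 127 kb from Nkx6-1, -12.7 points at the window 4.58 kb downstream of Emx2 and -6.97 points at the window 4.80 kb upstream of Neurog2. They are 1.03% of the shared windows of the set, below the 1.29% called over all windows, and 0 were called with the SEs doubled. The SE holds only the error in the deposited p-values, and whether that includes the spread between the 2 experiments is not given in the sources used here.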

How the results depend on the processing

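With a q of 0.01, single-copy windows, windows within 10 kb or protein-coding TSSs, no count of losses, gains or genes moved by over 1.5 times, and the count of z test calls was also 3 for protein-coding TSSs and single-copy windows. With no minimum difference, losses rose to 98 windows at 25 genes in CTR KD and 98 windows at 23 genes in YAP KD cells, gains to 1 and 2 windows, and the T0 and T4 counts to 2 and 3. With a minimum of 20 points, 7 windows at 3 genes and 9 windows at 4 genes were left. Every second window, which by construction holds fewer windows, gave 10 and 14 losses. Assignment by transcribed span or 1 kb before it gave 14 losses at 7 genes in CTR KD and 14 at 4 genes in YAP KD cells. Nkx6-1 dropped out in CTR KD cells, and Emx2, En1, Nkx6-1 and Olig2 in YAP KD cells. The largest YAP KD changes then stood at -0.56 points at Emx2, -6.47 points at En1 and -9.92 points at Olig2. The largest Nkx6-1 window then stood at 0.44 points in YAP KD cells, since the intergenic windows were no longer assigned to it. The z test calls fell to 0 with SEs doubled and to 2, at Emx2 and Nkx6-1, with every second window. When adjusted over the 1844 windows that were DMRs in either table, 5 windows of the set were called (Emx2, Pax3, Pax7 and Zic4). Of all 1844, 464 were called. Those windows were picked by the same changes that the test compares, so the larger count is no added support. The called Nkx6-1 and Neurog2 windows were not DMRs and were not among them.

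No paired analysis was possible because the tables hold no value per sample. Leaving out a replicate was not run for that reason, and the contribution of 1 experiment to any value was not tested. Without depth, a window that is missing from a table, such as the Fezf2 upstream or the Lhx2 intron window, is no evidence of no change.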
